A study of Mus musculus with 24 samples.

Results

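The genes described here are 7 that neutrophils or their marrow precursors express in abundance: S100a8, S100a9, Camp, Ngp, Ltf, Lcn2 and Retnlg. They were followed through cultures of mouse osteoclast precursors. They were taken by name from a deposited table of 10721 genes, and 7 of 7 were in it. The cultures came from mice deficient in STING (KO), the adaptor of cytosolic DNA sensing, and from wild-type (WT) mice. The labels do not say which allele the KO mice carry. Each genotype had 3 mice, all female and 10 to 12 weeks old. Their marrow cells grew for 72 hours in 40 ng/mL mCSF, the macrophage growth factor, and were seeded at 25000 per well. Cells at day 0 had received no RANKL. Cells at days 2, 3 and 4 had been kept in 10 ng/mL RANKL, the cytokine that induces osteoclasts, with 20 ng/mL mCSF. RNA of pooled wells from each mouse at each day gave 24 libraries in 8 groups of 3 (KO mice 481, 528 and 532, WT mice 480, 529 and 531). All days but the first carried RANKL and the lower mCSF, so RANKL, mCSF dose and time in culture cannot be told apart.

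Neutrophils store antimicrobial proteins in granules that are filled in sequence as the cell matures. Primary granules, with myeloperoxidase and serine proteases, are made by promyelocytes. Specific granules, with lactoferrin, lipocalin and cathelicidin, are made by myelocytes and metamyelocytes, and their genes depend on the transcription factor C/EBPε. Of the members, Ltf encodes lactoferrin, which binds iron, and Lcn2 encodes lipocalin-2, which binds bacterial siderophores. Camp encodes the cathelicidin precursor, whose peptide lyses bacteria, and Ngp encodes neutrophilic granule protein, a relative of the cathelicidins. S100a8 and S100a9 encode calcium-binding proteins that pair to form calprotectin, which makes up much of the neutrophil cytosol and is not a granule protein in the strict sense. Retnlg encodes resistin-like gamma, a secreted protein of marrow and myeloid cells.

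The members lie on 4 chromosomes (RefSeq annotation, GRCm38.p6, the mm10 build that the submitters name). S100a8 (chromosome 3, 90669071 to 90670034) and S100a9 (chromosome 3, 90692630 to 90695721) are 22.6 kb apart with 0 annotated genes between them. Camp (chromosome 9, 109847377 to 109849456), Ngp (chromosome 9, 110419808 to 110423012) and Ltf (chromosome 9, 111019292 to 111042766) fall within 1.2 Mb, with 18 annotated genes between Camp and Ngp and 25 between Ngp and Ltf. Lcn2 (chromosome 2, 32384637 to 32387739) and Retnlg (chromosome 16, 48872608 to 48874498) have no other member on their chromosome.

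Promoters of the calprotectin pair and of Ngp and Ltf on chromosome 9 are shown because they hold the matches described next. The calprotectin genes are 22.6 kb apart, but Ngp and Ltf are 596.3 kb apart, with 25 annotated genes between them. Camp, 570.4 kb from Ngp, held no match and is not shown. The sequences are RefSeq promoters, 250 bases before to 50 bases after the annotated gene start, written 5′ to 3′ along the gene, with matches to TTNNGNAA or its reverse complement TTNCNNAA in capitals. TTNNGNAA is a loose form of the motif that C/EBP factors bind, and it was searched on both strands.
S100a8, chr3:90668821-90669120, plus strand: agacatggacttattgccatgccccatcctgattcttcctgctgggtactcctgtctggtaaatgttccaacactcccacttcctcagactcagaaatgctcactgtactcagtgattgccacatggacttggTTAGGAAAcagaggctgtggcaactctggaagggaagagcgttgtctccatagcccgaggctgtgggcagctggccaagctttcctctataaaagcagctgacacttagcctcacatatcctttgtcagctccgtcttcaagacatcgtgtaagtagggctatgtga
S100a9, chr3:90695672-90695971, minus strand: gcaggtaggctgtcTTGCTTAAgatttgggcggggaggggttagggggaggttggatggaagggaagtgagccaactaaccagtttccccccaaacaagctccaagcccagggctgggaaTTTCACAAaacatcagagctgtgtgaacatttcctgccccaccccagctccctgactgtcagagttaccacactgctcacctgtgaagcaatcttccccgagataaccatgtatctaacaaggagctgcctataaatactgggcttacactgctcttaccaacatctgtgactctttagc
Ngp, chr9:110419558-110419857, plus strand: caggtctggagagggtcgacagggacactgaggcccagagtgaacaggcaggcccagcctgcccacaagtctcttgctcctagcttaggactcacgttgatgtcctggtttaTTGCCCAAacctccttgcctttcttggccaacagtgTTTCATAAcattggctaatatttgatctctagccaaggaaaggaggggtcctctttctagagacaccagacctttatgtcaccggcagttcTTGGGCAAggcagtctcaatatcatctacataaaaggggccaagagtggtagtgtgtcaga
Ltf, chr9:111019042-111019341, plus strand: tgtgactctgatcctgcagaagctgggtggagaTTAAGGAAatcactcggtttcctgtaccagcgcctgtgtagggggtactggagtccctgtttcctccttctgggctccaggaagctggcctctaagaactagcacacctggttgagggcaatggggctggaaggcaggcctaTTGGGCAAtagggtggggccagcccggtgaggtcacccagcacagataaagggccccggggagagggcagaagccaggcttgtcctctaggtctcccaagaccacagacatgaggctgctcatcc
These letters stood in 6 of the 7 member promoters, all but Camp, and in 40.7% of 32851 promoters of the same length. The Ngp window held 3 matches, starting at -138, -102 and -11 from the gene start, and the Ltf window held 2, at -217 and -75. The same 8 bases, TTGGGCAA, stood at -11 in Ngp and at -75 in Ltf, and their reverse complement stood at -138 in Ngp. TTGGGCAA, chosen after the matches were seen, was in 2 of 7 member promoters and in 0.828% of all promoters on either strand. S100a8 had 1 match, at -117, and S100a9 had 2, at -236 and -130. Of the other motifs searched on both strands, the ETS core GAGGAA was in 3 of 7 members against 28.3% of all promoters, the RUNX core TGTGGT in 2 of 7 against 16.8%, and TATAAA in 2 of 7 against 13.6%. A match in these windows describes letters, not binding.

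At day 0 the calprotectin pair was among the most abundant transcripts of the table. Values are FPKM, fragments scaled to transcript length and library size, so levels can be set beside each other between genes. S100a9 measured 6181, 4039 and 2887 FPKM in KO mice 481, 528 and 532, against 7683, 2585 and 4149 FPKM in WT mice 480, 529 and 531. It ranked between 6th and 17th of the 10721 genes in the 6 day 0 libraries. S100a8 measured 3803, 2602 and 2153 FPKM in the KO libraries, against 4655, 1662 and 2621 FPKM in the WT libraries. In both genes the highest and the lowest value belonged to WT mice 480 and 529, so the KO range lay inside the WT range.

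The granule genes followed the same mice. Ngp measured 1424, 1073 and 1349 FPKM in KO mice 481, 528 and 532, against 1745, 839 and 1068 FPKM in WT mice 480, 529 and 531. Camp measured 633, 491 and 379.8 FPKM in KO libraries, against 842, 348 and 598 FPKM in WT libraries. Both genes were again highest in WT mouse 480 and lowest in WT mouse 529. Lcn2 measured 420.1, 323 and 348 FPKM in KO libraries, against 566, 219.8 and 337 FPKM in WT libraries. Ltf measured 249, 162 and 169.9 FPKM in KO libraries, against 327, 112 and 151 FPKM in WT libraries. Retnlg, the least abundant, measured 194, 143 and 91.2 FPKM in KO libraries, against 207, 62.3 and 131 FPKM in WT libraries. For these 3 genes too, WT mice 480 and 529 were the extremes and the genotypes overlapped.

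The order of levels at day 0 was S100a9, S100a8, Ngp, Camp, Lcn2, Ltf and Retnlg, and each gene stood above the next within every one of the 6 libraries. Between mice the neighbours overlapped: S100a8 in WT mouse 529 was below Ngp in WT mouse 480, for example. The 7 genes together held 7378 to 12903 FPKM in KO libraries and 5827 to 16024 FPKM in WT libraries. That was 0.940% to 2.18% of the summed FPKM of the table at day 0.

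**Figure D1:**
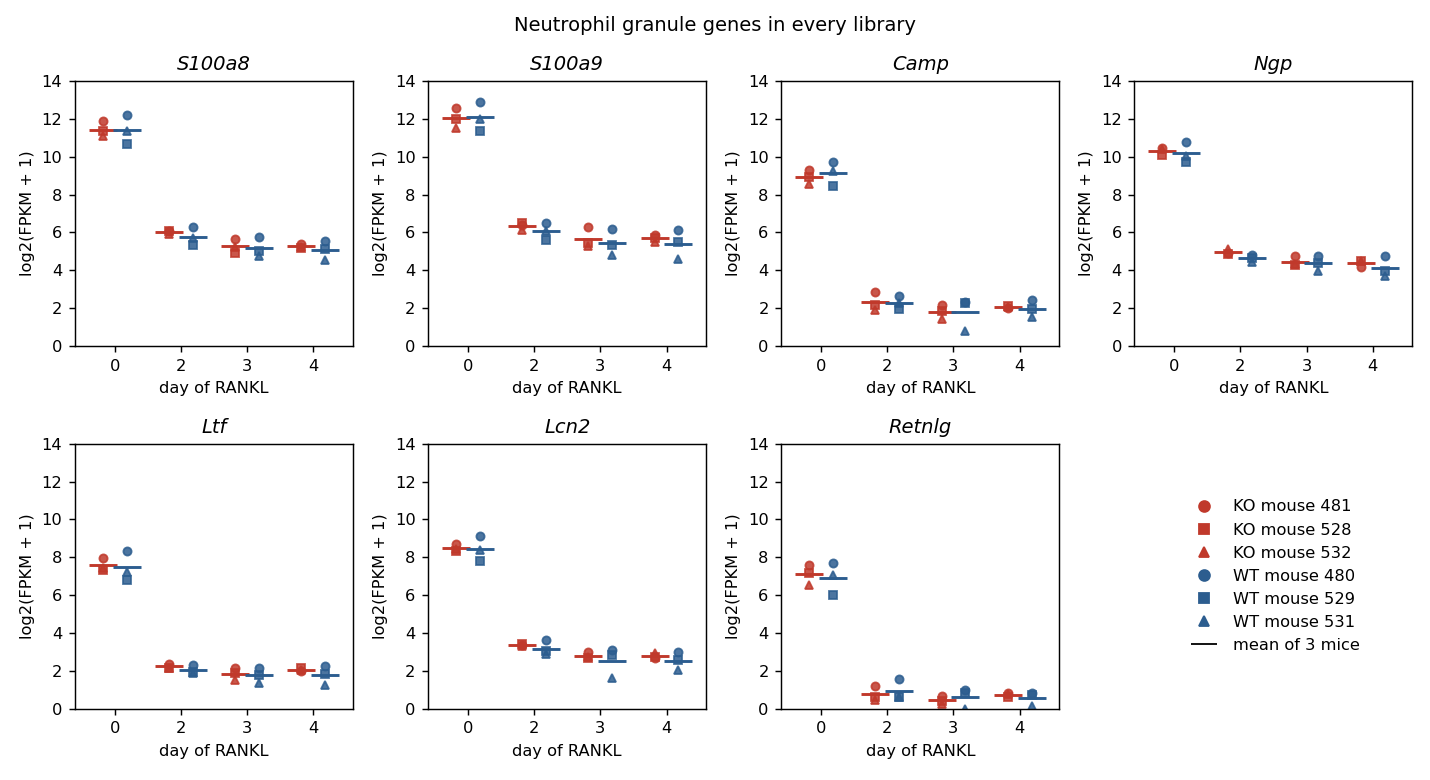
Level of each member on the log2(FPKM + 1) scale (vertical axis) at days 0, 2, 3 and 4 (horizontal axis). Points are libraries, KO in red left of WT in blue, the point shape gives the mouse, and horizontal bars are means of 3 mice. All 7 genes drop between day 0 and day 2 in both genotypes and stay low at days 3 and 4.

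By day 2 all 7 genes had fallen to a small share of their day 0 level in both genotypes. S100a8 stood at 66.3, 67.5 and 59.2 FPKM in KO mice 481, 528 and 532, against 76.7, 39.3 and 52.0 FPKM in WT mice 480, 529 and 531. Ngp stood at 29.3, 28.3 and 33.7 FPKM in KO libraries, against 27.0, 24.5 and 20.6 FPKM in WT libraries. Lcn2 stood at 9.16, 9.55 and 9.12 FPKM in KO libraries, against 11.2, 7.16 and 6.52 FPKM in WT libraries. No library at day 2 reached the lowest day 0 library for these 3 genes or for the other 4 members. S100a9 at day 2 ran from 70.0 to 89.8 FPKM in KO and from 47.8 to 90.7 FPKM in WT. Camp ran from 2.73 to 6.14 FPKM in KO and from 2.94 to 5.33 FPKM in WT, and Ltf from 3.52 to 4.09 FPKM in KO and from 2.74 to 3.99 FPKM in WT. All 7 passed the filter of a mean of 1 FPKM in at least 1 group, Retnlg in 3 of the 8 groups. Retnlg at day 2 stood at 0.369 to 1.31 FPKM in KO and 0.556 to 1.93 FPKM in WT.

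The falls were tested with limma on log2(FPKM + 1) across 10081 genes with Benjamini-Hochberg adjustment at 0.05; changes on this scale understate those of low genes. Between day 2 and day 0, 7 of 7 members fell in KO and 7 of 7 in WT, where 39.4% and 40.1% of all tested genes fell in the same comparisons. The largest fall at day 2 was that of Camp, by 6.63 ± 0.36 in KO and by 6.83 ± 0.36 in WT (log2 ± SE, 3 mice a group; limma adjusted p = 1.3e-12 and 8.0e-13). The smallest was that of Lcn2, by 5.14 ± 0.32 in KO and by 5.26 ± 0.32 in WT (limma adjusted p = 1.1e-11 and 7.6e-12). The median change of the members was -5.41 in KO and -5.63 in WT, while the median over all genes tested was 0.0032 in KO and 0.0041 in WT. Ranked from the largest fall, the members held places 4 to 30 in KO and 4 to 28 in WT among the 10081 genes. Day 2 and day 0 libraries did not overlap for 7 of 7 members in either genotype, against 38.7% of all genes lower without overlap in KO and 37.8% in WT.

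The genes stayed down at the later days. Against day 0, 7 of 7 members fell at day 3 in KO and in WT (41.8% and 43.3% of all genes) and 7 of 7 at day 4 (43.1% in KO and 44.6% in WT). S100a8 at day 4 stood at 41.7, 35.7 and 37.1 FPKM in KO mice 481, 528 and 532, against 46.0, 33.4 and 22.3 FPKM in WT mice 480, 529 and 531. Its fall from day 0 was 6.15 ± 0.33 in KO and 6.35 ± 0.33 in WT (log2 ± SE; limma adjusted p = 7.1e-13 and 4.5e-13). Ngp at day 4 stood at 17.3, 21.1 and 21.8 FPKM in KO libraries, against 25.6, 14.9 and 12.1 FPKM in WT libraries. Camp at day 4 stood at 3.08, 3.31 and 3.22 FPKM in KO libraries, against 4.43, 2.87 and 1.92 FPKM in WT libraries. For all 3 genes the KO libraries lay inside the WT range. The members' median change was -6.15 in KO at both days, and -6.23 at day 3 and -6.34 at day 4 in WT. Camp had the 2nd largest fall of the table in WT at day 3, at -7.32 ± 0.36 (log2 ± SE; limma adjusted p = 1.9e-13). That mean includes 0.756 FPKM in WT mouse 531, whose day 3 library was shallower, against 4.06 and 3.84 FPKM in WT mice 480 and 529. In bulk RNA, fewer cells of a type and less RNA per cell cannot be told apart.

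Expressed per mouse, the genes kept unequal shares of their own day 0 FPKM. At day 2 Lcn2 kept 2.59% ± 0.391 in KO and 2.39% ± 0.751 in WT, Ngp 2.40% ± 0.304 in KO and 2.13% ± 0.708 in WT, and S100a8 2.36% ± 0.542 in KO and 2.00% ± 0.359 in WT (SD, n = 3 mice). S100a9 kept 2.00% ± 0.571 in KO and 1.55% ± 0.339 in WT, and Ltf 1.96% ± 0.281 in KO and 1.86% ± 0.657 in WT. Camp kept 0.805% ± 0.142 in KO and 0.704% ± 0.123 in WT, and Retnlg 0.488% ± 0.163 in KO and 0.751% ± 0.283 in WT. Camp and Retnlg kept the smallest 2 shares in each of the 6 mice at each of days 2, 3 and 4. The smallest of all was Retnlg in WT mouse 531 at day 3, which is listed at 0 FPKM.

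**Figure D2:**
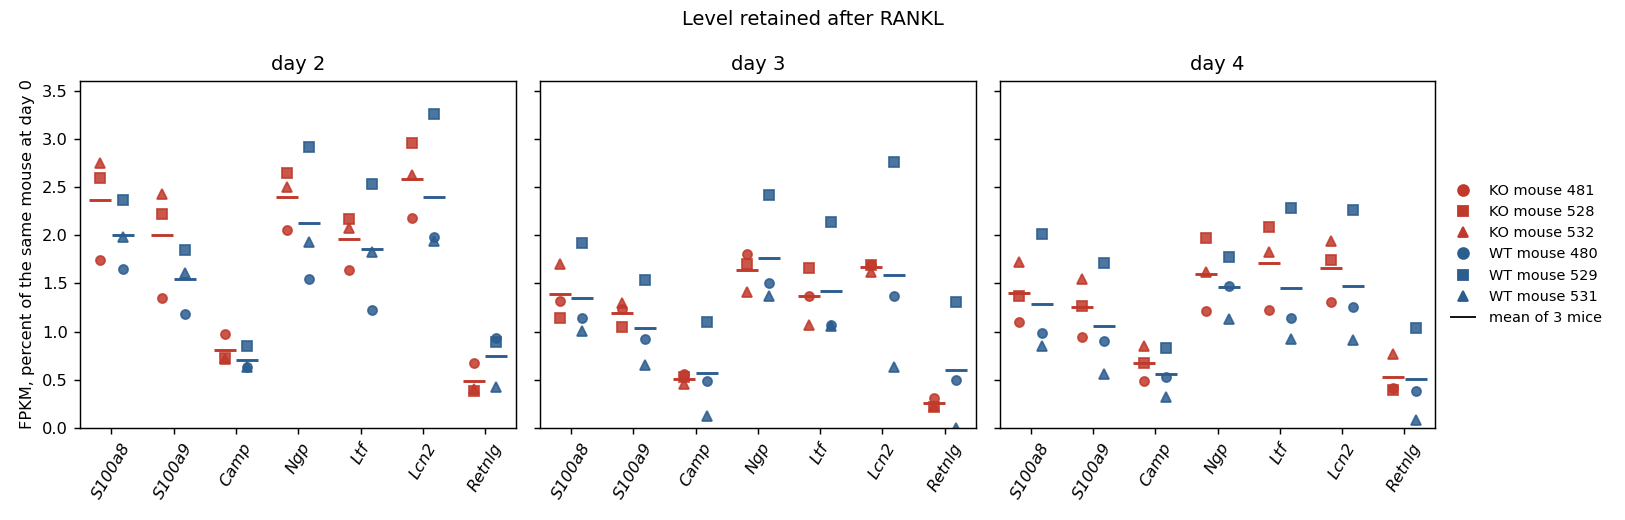
FPKM of each member at days 2, 3 and 4 as a percentage of the same mouse at day 0 (vertical axis, starting at 0), with KO in red left of WT in blue. Points are mice and horizontal bars are means of 3 mice; Camp and Retnlg lie below the other 5 genes in every mouse, and the KO and WT points overlap.

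These unequal shares changed the balance among the genes. Ngp exceeded Camp 2.22 times at day 0 (median of 6 libraries, range 1.79 to 3.55), and 6.68, 7.17 and 6.05 times at days 2, 3 and 4. The lowest ratio after day 0 was 4.77, above the highest at day 0. S100a8 exceeded Camp 5.41 times at day 0 (range 4.38 to 6.01) and 14.05, 13.7 and 11.6 times at days 2, 3 and 4, again without overlap with day 0. The S100a8 to Lcn2 ratio stayed closer, at 7.92 at day 0 and 6.95, 6.67 and 6.60 at days 2, 3 and 4, with overlapping ranges. S100a9 exceeded S100a8 1.57 times at day 0 and 1.24, 1.29 and 1.36 times later, with overlapping ranges at days 3 and 4. At days 2 to 4 the order of levels was S100a9, S100a8, Ngp, Lcn2, Camp, Ltf and Retnlg. Camp stood above Ltf in 5, 3 and 5 of 6 libraries at days 2, 3 and 4, so these neighbours did not differ beyond their spread.

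Between day 2 and day 3 all 7 genes were lower in both genotypes, but 0 of 7 passed the test in KO or in WT, where 30.8% and 35.5% of all genes did. The median member change was -0.53 in KO and -0.49 in WT, against 0 and 0.0072 over all genes. S100a8 stood at 50.2, 29.8 and 36.5 FPKM at day 3 in KO mice, against 66.3, 67.5 and 59.2 FPKM at day 2, a change of -0.74 ± 0.33 (log2 ± SE; limma adjusted p = 0.0967, unadjusted 0.0364). Ngp stood at 25.7, 18.3 and 19.1 FPKM at day 3 in KO mice, against 29.3, 28.3 and 33.7 FPKM at day 2 (change -0.53 ± 0.25; limma adjusted p = 0.123). Neither gene overlapped between the days in KO; 4 of 7 members did not overlap in KO and 0 of 7 in WT, against 54.4% of all genes in each. Each mouse gave both days, and with the mouse as a block 3 members fell in KO (S100a8, limma adjusted p = 0.00574, Ngp, 0.0186, and S100a9, 0.0330) and 3 in WT (S100a8, 0.0195, Lcn2, 0.0206, and S100a9, 0.0452). In that blocked fit 16.8% of all genes fell in KO and 20.5% in WT. Those calls rest on single mice: with the block, 0 members fell in KO without KO mouse 528 and 1 without KO mouse 532, and 0 fell in WT without WT mouse 531, whose day 3 library was shallower than the others. Without mouse 531 the WT changes ran from -0.41 (S100a8) to -0.014 (Camp), with a median of -0.16. Without WT mouse 480 in the unblocked fit, 2 members fell in KO.

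Between day 3 and day 4 the decline was no longer seen. The test was passed by 0 of 7 members in KO and by 0 of 7 in WT, where 17.9% and 21.8% of all genes passed. At an unadjusted p under 0.05 the members' count was also 0 in both, against 3253 in KO and 3478 in WT of 10081 genes. Changes ran from -0.05 (Ngp) to 0.30 (Retnlg) in KO and from -0.24 (Ngp) to 0.17 (Camp) in WT. Day 4 and day 3 libraries overlapped for all 7 genes in both genotypes, against 48.1% of all genes without overlap in KO and 48.2% in WT. Together the 7 genes held 117 to 130 FPKM in KO and 64.2 to 157 FPKM in WT at day 4, 0.0119% to 0.0304% of the table.

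STING deficiency was not accompanied by a difference in any member that passed the test. Tmem173, the gene of STING, averaged 4.84 ± 0.260 FPKM in KO and 25.2 ± 3.70 FPKM in WT at day 0, and 2.79 ± 0.119 FPKM in KO and 4.44 ± 0.919 FPKM in WT at day 4 (SD, n = 3). At day 0, 0 of 7 members passed between KO and WT, where 0.377% of all genes did. The member differences ran from -0.19 (Camp) to 0.19 (Retnlg), with limma adjusted p between 0.859 and 0.989. For S100a8 the difference was 0.02 with a 95% interval from -0.68 to 0.73, and for Ngp it was 0.13 with an interval from -0.40 to 0.67. Both intervals use a spread pooled over all days. Day 0 libraries were the noisiest, with a fitted weight of 0.35 against 1.20, 1.70 and 1.38 at days 2, 3 and 4. The day 0 intervals are thus likely too narrow. The members were higher or lower in KO by turns, with 2 of 7 lower.

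At days 2, 3 and 4, 0 of 7 members passed between KO and WT at each day, where 0.00992% of all genes passed at each. That was 1 gene at each day, and it was higher in KO. Tmem173, lower in KO, therefore did not pass at these days. Yet its genotypes did not overlap, at 2.65 to 2.86 FPKM in KO and 3.38 to 5.01 FPKM in WT at day 4. The fit pools the spread with the noisier day 0, so it can miss differences at later days. The members were higher in KO for 6, 6 and 7 of 7 genes, with median differences of 0.18, 0.07 and 0.25, against -0.0051, -0.00040 and 0.014 over all genes. The 7 genes vary together between mice, so these counts are not 7 separate observations. At an unadjusted p under 0.05 the count was 0 of 7 at every day, against 1099, 65, 78 and 81 of all genes at days 0, 2, 3 and 4. Ngp at day 2 was the only member whose genotypes did not overlap at any day, at 28.3 to 33.7 FPKM in KO and 20.6 to 27.0 FPKM in WT. Its difference was 0.33 ± 0.25 (log2 ± SE; limma adjusted p = 1), and 3.91% of all genes did not overlap at that day. At days 0, 3 and 4 the count without overlap was 0 of 7, against 5.88%, 7.47% and 3.98% of all genes. The change from day 0 differed between KO and WT past the test for 0 of 7 members at days 2, 3 and 4, where 0.0694%, 0.0694% and 0.0595% of all genes differed. For S100a8 at day 4 that difference of changes was 0.20, with a 95% interval from -0.79 to 1.19. The fit behind this interval does not pair the days of a mouse.

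**Figure D3:**
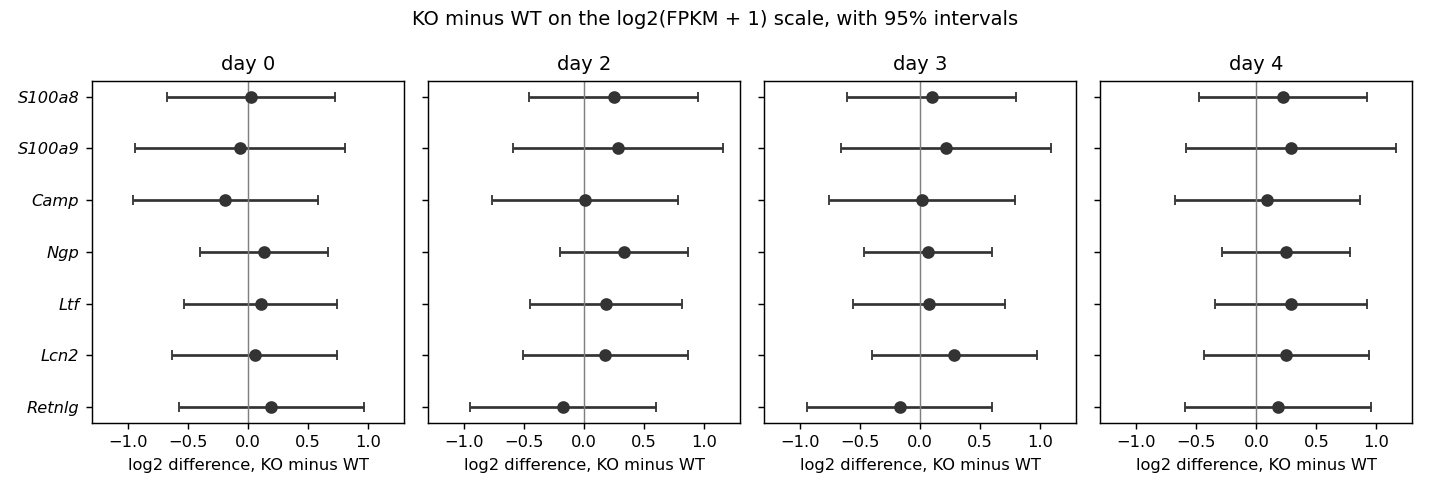
Difference between KO and WT on the log2(FPKM + 1) scale (horizontal axis) for each member (vertical axis) at days 0, 2, 3 and 4. Points are differences of means of 3 mice and bars are 95% intervals from the limma fit. Every interval crosses 0, and at day 4 the points lie between 0.09 and 0.29. The fit pools the spread over days, so bars at day 0 are likely too narrow and those at later days too wide.

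The members shared their spread between mice, except among KO mice at day 4. At day 0 the highest library exceeded the lowest 2.08 times for Ngp, 2.80 times for S100a8, 2.97 times for S100a9 and 3.31 times for Retnlg. WT mouse 480 was the highest WT mouse for 7 of 7 members at each of the 4 days. WT mouse 529 was the lowest WT mouse for 7 of 7 at day 0, and WT mouse 531 was the lowest for 7 of 7 at days 3 and 4. Among KO mice, 481 was highest for 7 of 7 at days 0 and 3 and for 3 of 7 at days 2 and 4. At day 4 KO mouse 481 was also the lowest KO mouse for 4 of 7. The members' mean then lay 0.0044, -0.011 and 0.0069 from its group mean in KO mice 481, 528 and 532 (log2). Deviations of each member from its group mean tracked the mean of the other 6 members across the 24 libraries, with r between 0.832 (Ngp) and 0.936 (Ltf). Mice recur across days and the genes of a library share its depth, so these r are a description.

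**Figure D4:**
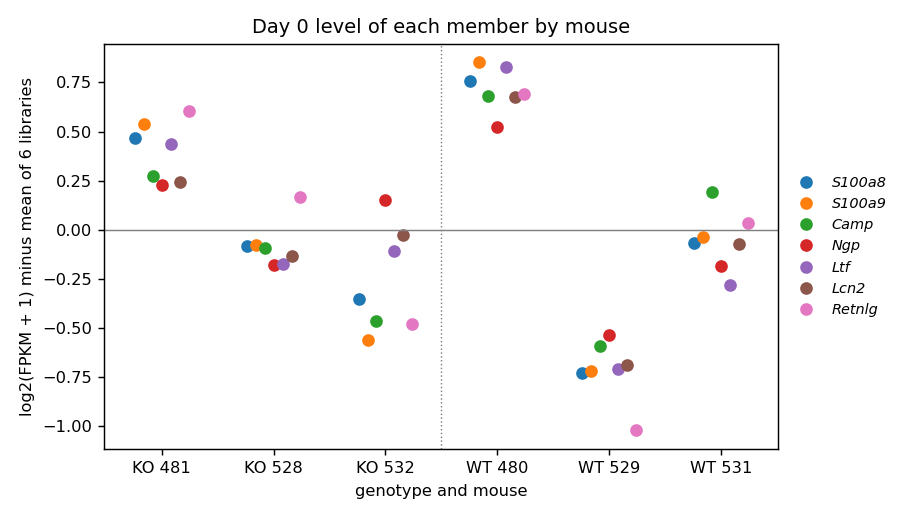
Day 0 level of each member in each mouse, as log2(FPKM + 1) minus the mean of the 6 day 0 libraries (vertical axis), with the 3 KO mice left of the 3 WT mice. Each colour is a gene; all 7 genes lie above 0 in KO mouse 481 and in WT mouse 480, and below 0 in WT mouse 529.

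Markers of other cells differed between the same mice at day 0. Cd79b, a subunit of the B cell receptor, measured 51.7, 25.1 and 22.4 FPKM in KO mice 481, 528 and 532, against 43.4, 15.3 and 19.7 FPKM in WT mice 480, 529 and 531. It was highest in mice 481 and 480, where the granule genes were also highest. Pf4, a platelet chemokine made by megakaryocytes, measured 529, 1297 and 1037 FPKM in KO libraries, against 438, 1130 and 1566 FPKM in WT libraries, and was lowest in mice 481 and 480. The other megakaryocyte genes did not follow Pf4: Itga2b, an integrin of platelets, measured 4.28, 4.91 and 4.36 FPKM in KO libraries, against 6.23, 2.43 and 3.57 FPKM in WT libraries, and was highest in WT mouse 480. Deviations from group means over the 24 libraries gave r with the members of -0.658 for Pf4, 0.610 for Itga2b, 0.619 for Gp9 and 0.156 for Ppbp. Of the 8 macrophage genes in the list, the 4 of highest mean FPKM had r of -0.511 for C1qb, -0.568 for C1qc, -0.027 for Cd68 and 0.506 for Csf1r. The r of the other macrophage genes is not given here. Pf4 alone is therefore not read here as a measure of megakaryocytes. The summed B cell markers (7 of 8 in the table) ran from 49.6 to 126 FPKM in KO and from 26.1 to 97.0 FPKM in WT, and the summed megakaryocyte markers (4 of 4) from 551 to 1325 FPKM in KO and from 469 to 1586 FPKM in WT, a sum made up mostly of Pf4. The part of these cells in the spread of the granule genes was not tested. Depth differed little between libraries of a group by the spacing of low values, except in the WT day 3 library of mouse 531, at 0.688 of the depth of the other WT day 3 libraries (0.940 to 1.17 for other pairs). Without mouse 531, 7 of 7 members still fell between day 3 and day 0 in WT and 0 of 7 between day 3 and day 2. Of all genes, 8026 passed in either direction between day 3 and day 0 in that fit (8598 with all mice). Between day 3 and day 2, 2023 passed (3582 with all mice).

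Genes of the primary granules were also present at day 0, each below every member within each library. Mpo, the myeloperoxidase gene, measured 56.5, 58.4 and 72.7 FPKM in KO libraries, against 37.8, 35.7 and 42.7 FPKM in WT libraries at day 0. Ctsg, the gene of cathepsin G, measured 28.2, 38.3 and 36.8 FPKM in KO libraries, against 17.1, 24.2 and 27.2 FPKM in WT libraries. Both were higher in every KO library than in any WT library, with differences of 0.67 ± 0.21 and 0.58 ± 0.17 that did not pass (log2 ± SE; limma adjusted p = 0.273 and 0.212), and 5.88% of all genes did not overlap at that day. Ms4a3, the third gene of the list, overlapped, at 12.4, 15.5 and 10.3 FPKM in KO libraries, against 10.2, 10.3 and 15.1 FPKM in WT libraries. From day 0 to day 4, 3 of 3 tested genes of this list fell in KO and in WT, Mpo by 5.39 in KO and 4.96 in WT. The sum of the 3 genes kept 3.28%, 1.87% and 0.855% of day 0 at days 2, 3 and 4 (median of 6 mice), while the sum of the 7 members kept 1.92%, 1.22% and 1.19%. Elane and Prtn3 were not analysed here.

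The other specific and gelatinase granule genes were a mixed list. Between day 4 and day 0, 8 of 8 tested genes fell in KO and 7 of 8 in WT, with medians of -2.60 in KO and -2.32 in WT. Mmp8, neutrophil collagenase, stood at 8.31, 8.76 and 7.93 FPKM at day 4 in KO mice, against 81.4, 77.6 and 96.8 FPKM at day 0. In WT mice Mmp8 stood at 5.79, 10.7 and 9.76 FPKM at day 4, against 64.2, 68.2 and 79.2 FPKM at day 0. Itgam, the CD11b integrin that macrophages also carry, stood at 97.3, 127 and 110 FPKM at day 4 in WT mice, against 139, 137 and 112 FPKM at day 0, and did not pass in WT (limma adjusted p = 0.112). Cfp and Adam8, which are also expressed by macrophages, fell by 1.31 and 1.99 in KO and by 1.47 and 1.74 in WT. The sum of this list kept 34.4% of day 0 at day 4, and Cfp, Adam8 and Itgam made up 97.6% of that sum at day 4 and 86.4% at day 0 (medians of 6 libraries). Other genes of the list kept shares close to those of the members: Cd177, a surface protein of neutrophils, kept 1.04% of day 0 at day 4, and Hp, the gene of haptoglobin, kept 1.29% (medians of 6 mice).

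Surface and cytosolic neutrophil genes fell too. Of the surface and chemotaxis genes, 9 of 9 fell between day 4 and day 0 in both genotypes, with medians of -1.81 in KO and -1.71 in WT. Csf3r, the receptor of the neutrophil growth factor G-CSF, stood at 0.415, 0.601 and 0.640 FPKM at day 4 in KO mice, against 13.1, 7.08 and 12.99 FPKM at day 0. In WT mice Csf3r stood at 0.261, 0.736 and 0.563 FPKM at day 4, against 17.4, 6.97 and 5.64 FPKM at day 0. Clec4d, a C-type lectin that macrophages also express, stood at 138 to 165 FPKM at day 4 in KO and 124 to 188 FPKM in WT, and made up most of this list's sum. Of the cytosolic genes, 7 of 7 fell in both genotypes, with medians of -2.80 in KO and -2.42 in WT. Padi4, which citrullinates histones in neutrophils, stood at 0.556 to 0.851 FPKM at day 4 in KO and 0.698 to 0.982 FPKM in WT, and had stood at 17.0 to 21.3 FPKM in KO and 14.1 to 19.1 FPKM in WT at day 0. Ly6g, the usual surface marker of mouse neutrophils, was not analysed here.

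Among 6 granulocyte transcription factors, 5 fell and 1 rose between day 4 and day 0 in each genotype. Cebpe, the gene of C/EBPε, stood at 0.949, 0.784 and 0.684 FPKM at day 4 in KO mice, against 15.4, 12.2 and 11.2 FPKM at day 0. In WT mice Cebpe stood at 0.801, 0.844 and 0.646 FPKM at day 4, against 20.5, 10.0 and 13.3 FPKM at day 0. Its fall was 2.94 ± 0.17 in KO and 3.09 ± 0.17 in WT (log2 ± SE; limma adjusted p = 2.2e-12 and 9.7e-13); Cebpe lies outside the rule for named genes and was chosen after its values were seen. Cebpb fell by 2.48 in KO and 2.60 in WT and Cebpa by 1.78 in KO and 1.85 in WT. Sfpi1, the gene of PU.1, which macrophages and osteoclasts need as well, rose by 0.63 in KO and 0.49 in WT (limma adjusted p = 3.0e-05 and 0.00049).

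Other lineages of the marrow fell with the granule genes, and osteoclast genes rose. Between day 4 and day 0, 3 of 3 tested monocyte genes fell in each genotype, with medians of -4.71 in KO and -4.56 in WT. Ly6c2, a marker of inflammatory monocytes, stood at 1.11 to 1.81 FPKM at day 4 in KO and 0.373 to 1.39 FPKM in WT, and had stood at 95.7 to 121 FPKM in KO and 64.0 to 115 FPKM in WT at day 0. B cell genes fell for 6 of 6 in both genotypes, megakaryocyte genes for 4 of 4 in both, eosinophil, basophil and mast cell genes for 5 of 5 in both, and erythroid genes for 3 of 3 in KO and 2 of 3 in WT. Of the macrophage genes 5 of 8 fell and 2 of 8 rose in each genotype. C1qb and C1qc fell by 3.20 and 2.98 in KO and by 3.34 and 3.13 in WT. Csf1r, the receptor of mCSF, rose by 1.02 in KO and 1.04 in WT, and Cd68 rose by 0.53 in KO and 0.55 in WT. Of the osteoclast genes 8 of 8 rose in each genotype; Acp5, tartrate-resistant acid phosphatase, stood at 18998 to 21625 FPKM at day 4 in KO and 18174 to 19528 FPKM in WT. Of the T and NK cell markers only Klrd1 was in the table, at 1.34 FPKM or less in every library, and it was not tested. In the list sums, the members kept 1.19% of day 0 at day 4, monocyte genes 2.44%, B cell genes 0.787%, megakaryocyte genes 2.96% and macrophage genes 70.1% (medians of 6 mice). Pf4 made up most of the megakaryocyte sum, averaging 30.2 FPKM in KO and 30.1 FPKM in WT at day 4. Cd68 was the largest part of the macrophage sum at day 4, averaging 2648 FPKM in KO and 2513 FPKM in WT. C1qb averaged 185 FPKM in KO and 215 FPKM in WT at day 4, against 1666 and 1964 FPKM at day 0.

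**Figure D5:**
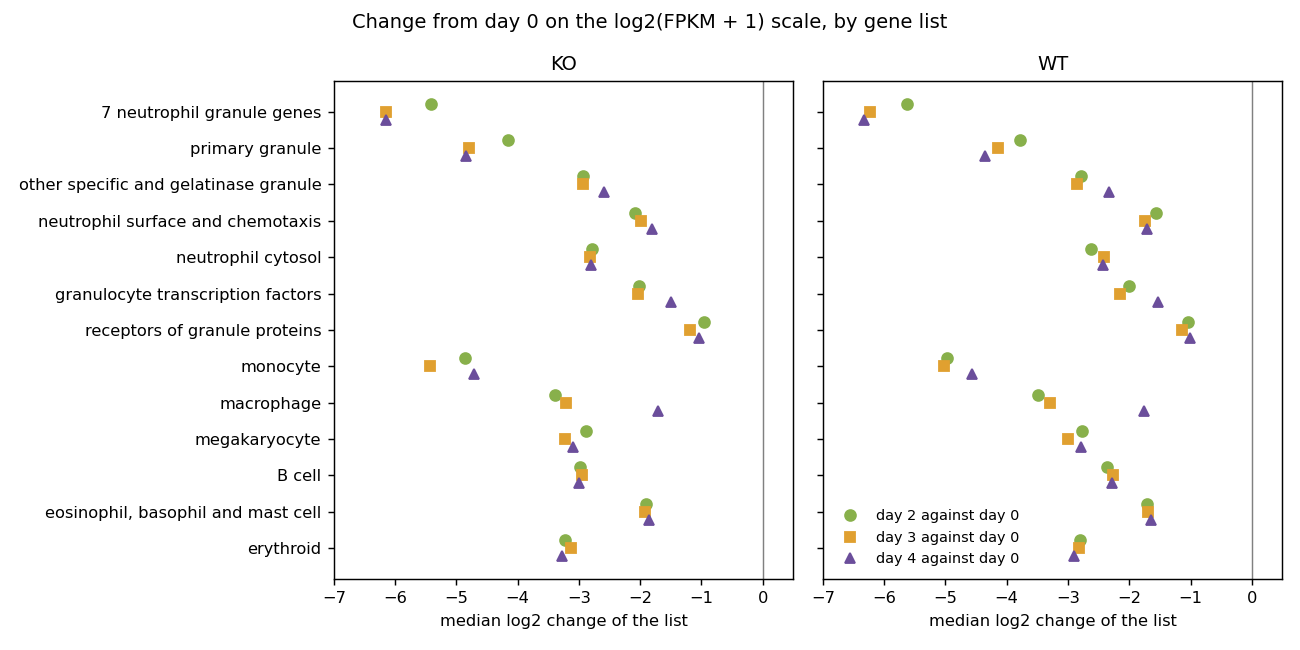
Median change from day 0 on the log2(FPKM + 1) scale (horizontal axis) at days 2, 3 and 4 for the 7 granule genes and for 12 lists of other genes (vertical axis), in KO on the left and in WT on the right. The members' medians lie between -5.41 and -6.15 in KO and between -5.63 and -6.34 in WT, below those of the other lists on this scale, which understates falls of lists with low day 0 levels; by share of day 0 kept at day 4, B cell genes (0.787%) lay below the 7 genes (1.19%).

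The genes most like the members over the 24 libraries were ranked by Pearson r of log2(FPKM + 1) with the members' mean. They were Chi3l3 (r = 0.996), Pglyrp1 (0.996), Hp (0.994), Nfe2 (0.994), Fcnb (0.994), Cd177 (0.993), Plac8 (0.993) and Rasgrp2 (0.992). The libraries share mice and the fall after day 0, so r describes the shared pattern. Chi3l3, a chitinase-like protein of myeloid cells that has close paralogues, averaged 6.10 ± 0.728 FPKM at day 4 in KO, against 206 ± 34.0 FPKM at day 0. Pglyrp1, a peptidoglycan-recognition protein of neutrophil granules, averaged 0.943 ± 0.387 FPKM at day 4 in KO, against 96.3 ± 10.8 FPKM at day 0 (SD, n = 3). None of the 8 passed between KO and WT at day 0, with limma adjusted p between 0.598 and 0.998.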

How the data were processed

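RNA was measured in 24 libraries of mouse osteoclast precursor cultures. The deposited table holds FPKM values per gene and library for 10721 genes; per the submitters' processing notes, the tools used include HISAT2 2.0.5, Cufflinks 2.2.1 and Cuffdiff with the mm10 build. The table is named as one of selected genes, and the rule of selection is not given in the sources used here. Read counts and depth are not given, and an exact 0 can be a failed estimate.

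The 10081 genes that averaged 1 FPKM or more in any of 8 groups were tested with limma 3.58.1 (R 4.3.3) on log2(FPKM + 1), with 8 group means over all 24 libraries, 16 residual degrees of freedom before moderation, a mean-variance trend, two-sided tests and Benjamini-Hochberg adjustment at 0.05 in each of 17 comparisons. The main fit treats the 24 libraries as independent, although mice recur across days. Tests were checked on simulated data with independent noise, the same spread in every group and no mouse effect. That check therefore does not cover recurring mice or the noisier day 0. Promoters are from RefSeq tables of GRCm38.p6. Figures and summaries used Python 3.11.15, pandas 2.3.3, numpy 2.4.6 and matplotlib 3.10.9. The members and the gene lists were chosen with earlier results of these data known, and the motifs after the sequences were seen.

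Besides the members, the text names up to 4 genes of each list, those of highest mean FPKM, and the 8 genes most like the members. Mouse numbers in the labels pair libraries by animal across days: deviations of the same mouse from its group means correlated with a median r of 0.261 in KO (17 of 18 pairs of days above 0.1) and 0.136 in WT (10 of 18). Within a day each library comes from a different mouse, and the same mice recur at every day. Of all libraries, 0 pairs were identical.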

Additional observations from a re-analysis of the deposited data

How the results depend on the processing

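Alternatives were a pseudocount of 0.1, no filter, a filter at 5 FPKM, median scaling, weights by day, fits to the compared groups only, the mouse as replicate block, and leaving out each mouse. The count of members past the threshold changed only between day 3 and day 2. In KO it was 0, and 1 with weights by day, 3 with the compared groups only, 3 with the block and 0 to 2 with a mouse left out; in WT it was 0, and 3 with the block. With the block and a mouse left out, chosen after seeing the data, it was 0 to 4 in KO (0 without KO mouse 528, 1 without KO mouse 532) and 0 to 5 in WT (0 without WT mouse 531, 5 without WT mouse 529). The block changed no other member call.

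No member difference between KO and WT passed under any alternative, but its sign often turned when a mouse was left out. At day 0 the differences ran from -0.33 to 0.41 for S100a8, -0.44 to 0.35 for S100a9, -0.53 to 0.11 for Camp, -0.27 to 0.59 for Retnlg, -0.10 to 0.43 for Ngp, -0.22 to 0.55 for Ltf and -0.27 to 0.41 for Lcn2, each lowest without WT mouse 529 and highest without WT mouse 480. At day 2 they ran from -0.25 to 0.21 for Camp and from -0.40 to 0.13 for Retnlg. At day 4 they ran from -0.040 to 0.47 for S100a8, -0.12 to 0.65 for S100a9, -0.13 to 0.32 for Camp, -0.030 to 0.32 for Retnlg and -0.0050 to 0.49 for Lcn2, each lowest without WT mouse 531. The cause was not tested.

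Counts over all genes moved more. Between KO and WT at day 0, 38 genes passed, and 14 with the pseudocount of 0.1, 10 with weights by day, 3 with the compared groups only and 19 to 84 with a mouse left out. Between day 4 and day 3 in KO, 1809 passed, and 3609 with weights by day, 3307 with the compared groups only and 480 to 2307 with a mouse left out; in WT 2195 passed, and 3913 with weights by day and 913 to 2007 with a mouse left out. Between day 3 and day 2, leaving out a mouse gave 1506 to 3409 in KO (3105 with all) and 2023 to 3459 in WT (3582 with all). The 1 gene between KO and WT at days 2, 3 and 4 became at most 4, 2 and 3, and the 7, 7 and 6 genes whose change differed between genotypes became as few as 2, 2 and 1.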

Other observations

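Receptors that sense or clear granule proteins had median changes nearer 0 than the members; the difference was not tested. Between day 4 and day 0, 5 of 6 tested receptor genes fell in KO and 6 of 6 in WT, with medians of -1.04 in KO and -1.002 in WT. Tlr4, a receptor of calprotectin, stood at 8.13, 8.24 and 8.20 FPKM at day 4 in KO mice, against 12.6, 13.2 and 15.2 FPKM at day 0. In WT mice Tlr4 stood at 7.56, 11.7 and 8.69 FPKM at day 4, against 13.2, 15.5 and 13.4 FPKM at day 0. Lrp1, a receptor that takes up lactoferrin, fell by 1.24 in KO and 0.89 in WT (limma adjusted p = 3.9e-07 and 2.5e-05). The gene that did not pass in KO, Cd36, is listed at 0 in KO mouse 481 at day 0.

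Ranked by deviations from group means over the 24 libraries, the genes most like the members were Chi3l3 (r = 0.878), Kctd6 (0.855), Panx1 (0.835), Pglyrp1 (0.813), Arhgef1 (0.808), Pcyt2 (0.806), Pim3 (0.803) and Wdfy1 (0.798). Wdfy1, Pim3 and Kctd6 did not share the fall at day 4 against day 0. Between day 4 and day 0 Wdfy1 rose by 1.45 in KO and 1.36 in WT (limma adjusted p = 1.8e-08 and 4.1e-08). Pim3 rose by 0.36 in KO (limma adjusted p = 0.00515) and changed by 0.23 in WT without passing (limma adjusted p = 0.0592). Kctd6, which was lower at day 2, by 0.26 in KO without passing and by 0.36 in WT past the test (limma adjusted p = 0.0756 and 0.0163), changed at day 4 by 0.27 in KO and 0.13 in WT without passing (limma adjusted p = 0.0622 and 0.371).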
